A study of Mus musculus with 23 samples.

Results

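Genes of nucleic acid sensing and of the handling of double-stranded RNA are described here, 10 in all, chosen by name as the rows of the count and TPM tables with their symbols: 3 RNA sensors (Ifih1, Dhx58 and Tlr3), the adaptor Mavs, the kinase Tbk1, 2 enzymes that respond to double-stranded RNA (Eif2ak2 and Adar), 2 enzymes that degrade nucleic acids or their building blocks (Trex1 and Samhd1) and the interferon-induced protein gene Ifi35. All 10 of the 10 symbols were found, out of 32793 rows, and all 10 were among the 14187 genes with enough counts to be tested. The RNA came from C2C12, an established line of mouse myoblasts, the precursors of skeletal muscle, which fuse into multinucleate myotubes once serum is lowered. Poly(A) RNA of control cells (WT) and of cells labelled Runx1KO was sequenced on day 0, in medium for growth containing 20% fetal bovine serum, and after 1, 3 and 6 days in 2% horse serum. There were 3 libraries in each of the 8 groups, except 2 for WT on day 0, and 23 in all. Where the sample titles have day 6, the description of the series has day 5, and the titles were followed. The labels name no other allele or agent, and do not say how the knockout was made, whether it is 1 clone, or whether the libraries of a group came from separate cultures, so p-values may measure technical spread only.

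Runx1 itself went against its label. Its level was 84.0 and 83.9 CPM (counts scaled to the depth of the library) in the 2 WT libraries of day 0, against 118, 119 and 122 CPM in the libraries labelled KO. By day 6 the WT libraries held 146, 148 and 165 CPM and those labelled KO 297, 320 and 315 CPM. The log2 fold change (log2FC) of labelled KO over WT was 0.51 ± 0.094 (SE) on day 0 and 1.02 ± 0.083 on day 6, with edgeR adjusted p of 0.000362 and 6.11e-10. A total over the whole gene does not show whether the transcript is intact, and every direction given here holds for the libraries as labelled. Total counts ran from 22197606 to 23684077 per library. Replicate 2 of labelled KO on day 1 stood apart from both other replicates of its group: the chi-square statistic of counts over genes, per degree of freedom, was 58.4 and 58.8 for its pairs, against 3.07 to 27.3 for every other pair of replicates. Called day 1 differences of the 10 genes, and those of the other genes named for day 1, are given with and without it. The counts of the 10 genes called on day 1 were the same without it, but against growth medium the genes were not. There Tlr3 and Adar lost their calls, and Trex1 and Tbk1 gained them. Day 1 counts over the other gene lists include that library.

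Cells detect RNA and DNA that is misplaced or has an unusual form. In the cytosol, long double-stranded RNA is bound by MDA5, the product of Ifih1, and short or 5′-triphosphate RNA by RIG-I, the product of Ddx58; both signal through MAVS on mitochondria to the kinase TBK1, which activates the transcription factors that induce type I interferons. Interferon in turn induces a large set of genes, many of the sensors among them, through response elements in promoters that the ISGF3 complex binds. ADAR edits double-stranded RNA of the cell itself so that MDA5 does not respond to it, and TREX1 and SAMHD1 restrict the nucleic acid that could act as a trigger; inherited loss of any of these 3 genes in people causes an interferonopathy.

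Because members of the group are known interferon targets, their RefSeq promoter windows (250 bases before to 50 after an annotated start, assembly GRCm38.p6, the build named mm10 in the submitters' processing notes) were searched on both strands for the core of the interferon-stimulated response element, GAAANNGAA. Windows were given for 9 of the 10 genes, 12 windows in all, and not for Dhx58. The core was found in windows of 3 of the 9 genes: Ifih1, Eif2ak2 and Adar. Across the whole set, 8.56% of 32851 windows held it, or 9.76% of 27025 genes. The 250 bases before the start of Ifih1 (chr2:62646256-62646505, minus strand) are shown first, and then shorter stretches around the matches that lie after a start. All are written 5′ to 3′ on the strand of the gene. Capitals mark the match, which in the Ifih1 upstream sequence is on the opposite strand, at positions -112 to -104.
Ifih1 upstream: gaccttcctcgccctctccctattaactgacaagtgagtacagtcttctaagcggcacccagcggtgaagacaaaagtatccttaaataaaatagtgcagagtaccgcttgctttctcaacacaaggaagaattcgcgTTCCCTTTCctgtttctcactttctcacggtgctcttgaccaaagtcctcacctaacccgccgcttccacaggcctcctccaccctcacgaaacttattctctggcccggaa
Ifih1 after the start: gagaatcGAAACAGAAaccgatc
Eif2ak2 after the start: ccgccggGAAAACGAAACAGAAgagaacc
Adar after start 3: aggaaacGAAAGTGAActctggg
The Ifih1 stretch lies at chr2:62646208-62646230 with its match 33 to 41 bases from the start. In Eif2ak2 (chr17:78882533-78882561, minus strand) 2 overlapping matches span positions 19 to 33. In Adar, which has 3 annotated starts in the table, the window of start 3 held the match shown (chr3:89730744-89730766, plus strand, positions 34 to 42) and another at positions -249 to -241. The Stat-type element TTCNNNGAA was found in windows of 4 of the 9 genes (Eif2ak2, Adar, Samhd1 and Ifi35), against 9.55% of all genes. The Runx core TGTGGT was found in 2 (Adar and Samhd1), against 18.9% of all genes. A match is a description of these letters and no measure of binding.

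Between labelled KO and WT, 7 of the 10 genes differed most on day 6, while Mavs and Samhd1 differed most on day 1. Tbk1 also had its largest log2FC on day 1 (0.44), but this was 0.23 without the library that stands apart. In growth medium, 0 of the 10 genes were higher and 2 were lower in the libraries labelled KO, by the quasi-likelihood test of edgeR (p adjusted by Benjamini-Hochberg over all tested genes, threshold 0.05), where 7.36% of all tested genes were higher and 10.1% lower. On day 1, 2 were higher and 2 lower (22.9% and 19.2% of all genes). On day 3, 8 were higher and 2 lower (24.0% and 19.2% of all genes). On day 6, 8 were higher and 1 lower (22.0% and 20.8% of all genes). The median log2FC of the 10 genes was 0.05, 0.04, 0.97 and 1.72 on days 0, 1, 3 and 6, beside medians over all tested genes of -0.0011, 0.03, 0.04 and 0.0037.

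**Figure D1:**
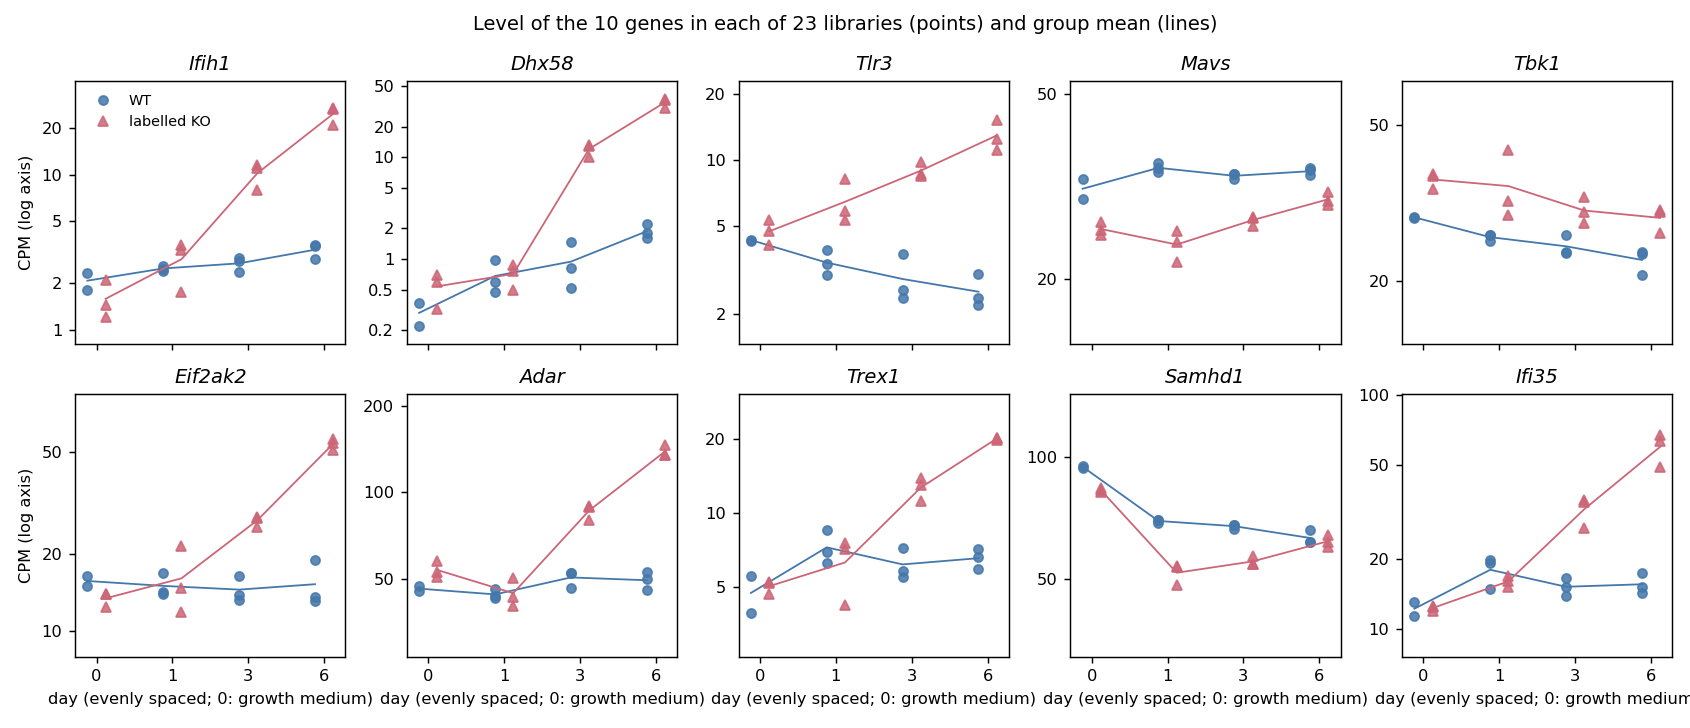
Level of each of the 10 genes in CPM (log axis) in every one of the 23 libraries, by day of differentiation (days evenly spaced, day 0 is growth medium). Circles are WT libraries, triangles libraries labelled KO, and lines join group means. In 7 panels the triangles lie above the circles on days 3 and 6; Mavs and Samhd1 lie below the circles on day 3, and Tbk1 lies above them on every day.

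The cytosolic sensor genes differed most. Ifih1 (chr2:62595618-62646255) encodes MDA5. Its level was 2.35, 2.77 and 2.91 CPM in WT on day 3 and 11.6, 8.0 and 11 CPM in labelled KO. The day 6 values were 3.48, 3.50 and 2.85 CPM in WT and 20.9, 26.9 and 26.5 CPM in labelled KO. The groups did not overlap on either day, and the lowest labelled KO library of day 6 was above every WT library of any day. The difference was 3.81-fold on day 3 (log2FC 1.93 ± 0.20 SE, adjusted p = 6.58e-08) and 7.55-fold on day 6 (2.92 ± 0.20, adjusted p = 2.53e-11). On days 0 and 1 the groups overlapped, with log2FC of -0.39 (adjusted p = 0.418) and 0.20 (0.500).

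Dhx58 (chr11:100694884-100704271) encodes LGP2, a relative of MDA5 and RIG-I without their signalling domains, which modulates both. It was nearly silent in growth medium, with 5 and 8 counts in the WT libraries and 7 to 15 in those labelled KO. WT reached 1.48, 0.823 and 0.521 CPM on day 3 and 1.80, 2.22 and 1.59 CPM on day 6. The labelled KO libraries reached 13.3, 10.1 and 12.8 CPM on day 3 and 30.2, 36.4 and 37.5 CPM on day 6, well clear of WT. The log2FC was 3.67 ± 0.25 (adjusted p = 4.41e-11) on day 3 and 4.21 ± 0.22 (3.24e-13) on day 6, an 18.5-fold difference and the widest of the 10. On day 0 (0.86 ± 0.54, adjusted p = 0.322) and day 1 (0.07 ± 0.37, adjusted p = 0.897) the difference did not pass the test.

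Tlr3 (chr8:45395665-45411075) encodes the endosomal receptor for double-stranded RNA, which signals through TRIF rather than MAVS. It was already higher in labelled KO on day 1, where it stood at 3.36, 3.01 and 3.89 CPM in WT and 5.32, 8.21 and 5.86 CPM in labelled KO, where the highest value belongs to the library that stands apart. The day 1 log2FC was 0.92 ± 0.19 (adjusted p = 0.00041) with that library and 0.69 ± 0.19 (adjusted p = 0.00568) without it. WT then stayed low, at 2.35, 3.73 and 2.56 CPM on day 3 and 2.19, 2.35 and 3.02 CPM on day 6. Labelled KO rose to 9.78, 8.44 and 8.66 CPM and then 11.1, 15.3 and 12.5 CPM, without overlap. The differences were 3.11-fold on day 3 (log2FC 1.64 ± 0.19, adjusted p = 2.57e-07) and 5.12-fold on day 6 (2.36 ± 0.19, adjusted p = 5.58e-10).

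Mavs and Tbk1, which carry the signal on from the sensors, differed little, and in opposite directions. Mavs (chr2:131234063-131248025) was lower in labelled KO on every day. In growth medium it was 29.8 and 32.7 CPM in WT against 25.5, 24.9 and 26.5 CPM. The day 1 values were 33.9, 35.5 and 34.6 CPM against 24, 21.8 and 25.4 CPM, the widest gap of the 4 days and one that did not overlap. Day 6 brought 34.6, 33.5 and 34.2 CPM in WT and 30.7, 28.9 and 29.4 CPM in labelled KO. The log2FC was -0.29 ± 0.077, -0.55 ± 0.069, -0.32 ± 0.069 and -0.20 ± 0.068 on days 0, 1, 3 and 6, with adjusted p of 0.0109, 1.24e-06, 0.000666 and 0.0211. The day 1 value was -0.51 (adjusted p = 2.42e-06) without the library that stands apart. The call of day 0 was lost without WT replicate 2 (-0.22, adjusted p = 0.187) and that of day 6 without replicate 2 or 3 of labelled KO (adjusted p of 0.0782 and 0.0575), and neither passed the test when no filter on low counts was used (0.0715 and 0.115).

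Tbk1 (chr10:121546455-121586794) was higher in labelled KO. It was 29.0 and 29.1 CPM in WT and 34.4, 37.5 and 37.1 CPM in labelled KO in growth medium, a difference that did not pass the test although the groups were apart (log2FC 0.32 ± 0.12, adjusted p = 0.0678). On day 1 WT was at 26.1, 26.1 and 25.3 CPM and labelled KO at 32.0, 43.3 and 29.5 CPM. The log2FC was 0.44 ± 0.11 (adjusted p = 0.00211), and 0.23 (adjusted p = 0.0332) without the library that stands apart, which holds the 43.3 CPM. With only the libraries of 1 day in the fit, the day 0 difference passed the test (adjusted p = 0.00797) and that of day 1 did not (0.0705). On day 3 it was 0.30 ± 0.11 (adjusted p = 0.0254) and on day 6 0.36 ± 0.11 (adjusted p = 0.00971). These late calls were not stable. The day 3 call was lost with RLE scaling (adjusted p = 0.0551), library size only (0.075), a mean count of at least 50 (0.0609) and DESeq2 (0.053), so that 7 rather than 8 of the 10 genes were higher on that day with RLE scaling, library size only, DESeq2 or either TPM scale. The day 3 call was also lost without labelled KO replicate 3 (0.25, adjusted p = 0.116) and without WT replicate 2 (0.24, 0.15) or 3 (0.28, 0.0848), and the day 6 call without WT replicate 1 (0.27, 0.0956). On the scale of log2(TPM + 1), neither of these days passed the test (adjusted p of 0.346 and 0.147).

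**Figure D2:**
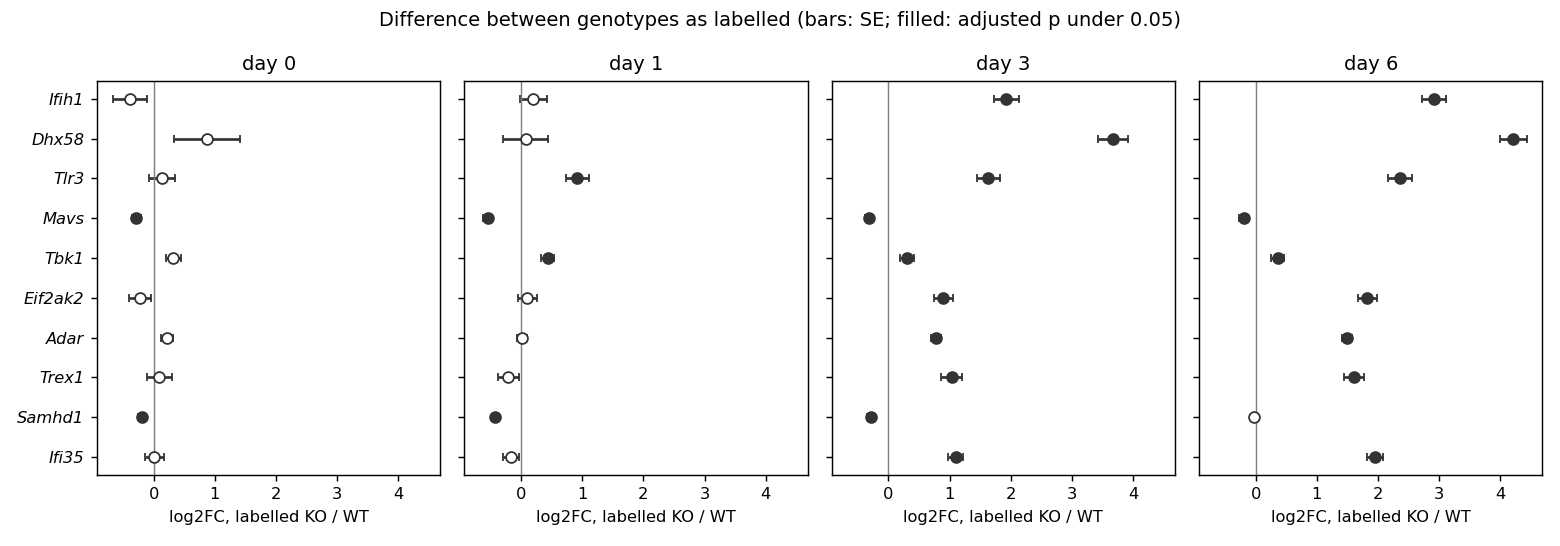
Log2 fold change of libraries labelled KO over WT for each gene on days 0, 1, 3 and 6. Points are edgeR estimates, bars are standard errors, and filled points passed an adjusted p of 0.05. No value exceeds 0.92 on days 0 and 1, against values from 0.77 to 3.67 for 7 genes on day 3 and from 1.49 to 4.21 on day 6, while Mavs, Tbk1 and Samhd1 stay within 0.55 of 0.

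The 2 enzymes that respond to double-stranded RNA were both called higher on days 3 and 6. Eif2ak2 (chr17:78850504-78882572) encodes PKR, which stops translation by phosphorylating eIF2 alpha when it binds double-stranded RNA. It was 13.9, 16.4 and 13.3 CPM in WT on day 3 and 27.7, 25.6 and 28.0 CPM in labelled KO. On day 6 WT was still at 13.2, 13.6 and 19.0 CPM and labelled KO at 54.4, 56.3 and 51.2 CPM. The groups were apart on both days, with differences of 1.87-fold (log2FC 0.90 ± 0.16, adjusted p = 5.63e-05) and 3.54-fold (1.82 ± 0.15, adjusted p = 1.32e-09). On day 1, labelled KO spread from 11.9 to 21.6 CPM around a WT range of 14.0 to 16.9 CPM, and its highest value was again the library that stands apart.

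Adar (chr3:89714469-89753455) encodes the adenosine deaminase that converts adenosine to inosine in double-stranded RNA. In growth medium it was 45.3 and 47.0 CPM in WT and 50.5, 52.8 and 57.4 CPM in labelled KO, apart but not past the test (log2FC 0.22 ± 0.095, adjusted p = 0.133; 0.0428 with only the day 0 libraries in the fit). WT was at 52.4, 52.4 and 46.5 CPM on day 3 and 49.9, 45.6 and 52.5 CPM on day 6. Labelled KO was at 89.1, 80.3 and 89.6 CPM and then 135, 147 and 135 CPM. The difference was 1.71-fold on day 3 (log2FC 0.77 ± 0.084, adjusted p = 8.99e-08) and 2.81-fold on day 6 (1.49 ± 0.084, adjusted p = 1.08e-12). The count does not separate the constitutive from the interferon-inducible transcript of Adar. Adar overlaps Chrnb2 on the annotation, a gene with at most 1.47 CPM in any library.

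The nuclease and phosphohydrolase genes did not behave alike. Trex1 (chr9:109057932-109059723) encodes the main cytosolic DNA exonuclease. It was 7.23, 5.81 and 5.51 CPM in WT and 13.9, 11.2 and 12.9 CPM in labelled KO on day 3, then 7.13, 6.61 and 5.91 CPM against 19.8, 20.0 and 20.2 CPM on day 6. The groups did not overlap on either day, and the day 6 difference was 3.05-fold (log2FC 1.61 ± 0.17, adjusted p = 3.32e-08) after 2.05-fold on day 3 (1.03 ± 0.17, adjusted p = 2.79e-05). Trex1 lies within the readthrough gene Atrip-trex1, which has a row of its own, with log2FC of 0.46 on day 3 and 0.40 on day 6 (adjusted p of 0.000969 and 0.00327). How reads were divided between the 2 rows is not given in the sources used here, so the level of Trex1 is uncertain.

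Samhd1 (chr2:157097534-157135096) encodes the enzyme that breaks down deoxynucleotides. In growth medium it was 95.2 and 94.0 CPM in WT and 84.1, 81.8 and 82.9 CPM in labelled KO. It then stood at 69.0, 69.8 and 70.0 CPM against 53.8, 48.4 and 53.5 CPM on day 1, and at 66.5, 68.2 and 68.0 CPM against 54.6, 54.5 and 57.0 CPM on day 3. Labelled KO was thus below WT without overlap until day 3, and on day 6 the groups overlapped, at 61.8, 66.0 and 61.9 CPM against 60.2, 61.8 and 64.4 CPM. The log2FC was -0.19 ± 0.066 (adjusted p = 0.0486), -0.42 ± 0.060 (6.17e-06), -0.29 ± 0.060 (0.00044) and -0.03 ± 0.060 (0.772). The day 0 call was lost when any 1 of the 5 libraries of that day was left out (log2FC from -0.20 to -0.16, adjusted p from 0.106 to 0.301), and the day 1 value was -0.40 without the library that stands apart.

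Ifi35 (chr11:101448412-101458701) encodes an interferon-induced protein that binds NMI. It was 16.5, 15.2 and 13.8 CPM in WT on day 3 and 35.6, 27.0 and 34.9 CPM in labelled KO. Day 6 brought 15.1, 17.3 and 14.2 CPM against 49.2, 63.6 and 67.2 CPM. The groups were apart, by 2.14-fold (log2FC 1.10 ± 0.13, adjusted p = 2.73e-07) and 3.86-fold (1.95 ± 0.13, adjusted p = 1.54e-11). In growth medium they were level, with 13 and 11.4 CPM in WT and 12, 12.4 and 12.5 CPM in labelled KO.

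Ordered by mean CPM over the 8 groups, the genes fell into a common order and 3 others. For Ifih1, Dhx58, Tlr3, Eif2ak2, Adar, Trex1 and Ifi35 the first place was labelled KO on day 6 and the next labelled KO on day 3, each with libraries clear of the group below. The other 6 groups stood lower, and among them each neighbouring pair overlapped for Eif2ak2 and Adar. There Ifih1 ran from 1.58 ± 0.45 CPM (SD, n = 3; labelled KO, day 0) to 3.28 ± 0.37 (n = 3; WT, day 6), and Dhx58 from 0.295 ± 0.11 (n = 2; WT, day 0) to 1.87 ± 0.32 (n = 3; WT, day 6), where WT on day 6 was clear of the group below. Eif2ak2 ran from 13.4 ± 0.92 CPM (labelled KO, day 0) to 16.1 (labelled KO, day 1), where single libraries reached from 11.9 to 21.6 CPM. Adar went from 44.0 CPM in WT on day 1 to 53.6 ± 3.52 CPM in labelled KO on day 0, and Trex1 from 4.74 ± 1.16 (n = 2; WT, day 0) to 7.25 CPM (WT, day 1). Ifi35 was lowest in growth medium, at 11.4 to 13 CPM, and its day 1 libraries ranged from 14.8 to 19.8 CPM in WT and from 15.1 to 16.8 CPM in labelled KO. Tlr3 had its own order below the top, with labelled KO on day 1 (5.32 to 8.21 CPM) next, its libraries clear of the group below by a narrow margin, and WT on day 6 last (2.19 to 3.02 CPM).

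Mavs was highest in WT on day 1 (34.7 CPM) and lowest in labelled KO on day 1 (23.7 CPM), with all 4 WT groups above all 4 labelled KO groups by their means; its day 3 libraries were 32.7 to 33.7 CPM in WT and 26.0 to 27.2 CPM in labelled KO. Tbk1 was highest in labelled KO in growth medium (36.3 CPM) and lowest in WT on day 6 (22.6 CPM), and each step among its 5 highest groups overlapped. Samhd1 had its peak in WT growth medium (94.6 CPM), then labelled KO growth medium (82.9 CPM), with its lowest level in labelled KO on day 1 (51.9 CPM) and no overlap between neighbours except WT with labelled KO on day 6.

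Per unit of transcript length, the order of the genes changed between the groups. In growth medium Samhd1 had the highest mean TPM (the authors' deposited share of transcripts, corrected for length) in both genotypes, 39.6 ± 1.99 (SD, n = 2) in WT and 33.3 ± 0.84 (n = 3) in labelled KO, and Dhx58 the lowest, at 0.205 and 0.350 TPM. On day 6 Ifi35 led in labelled KO at 81.4 ± 9.53 TPM, before Trex1 (41.3 ± 1.13) and Adar (40.4 ± 1.87), whose ranges overlapped, while in WT Samhd1 still led at 29.5 ± 2.02 TPM. Dhx58 went from the bottom to 24.9 ± 1.66 TPM in labelled KO on day 6, against 1.46 ± 0.15 TPM in WT. Ifih1 and Tlr3 were the least abundant there, at 7.84 ± 0.74 and 5.08 ± 0.72 TPM. Summed over the 10 genes, TPM was 271 to 289 per library in labelled KO and 124 to 141 in WT on day 6, and 111 to 115 against 118 to 123 in growth medium.

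Over the course of differentiation in WT, Samhd1 was lower than in growth medium on every later day. Dhx58 was higher on days 3 and 6, on day 3 not without WT replicate 1 of day 0 (log2FC 1.37). On day 1 Dhx58 stood just outside the threshold (1.20 ± 0.51, adjusted p = 0.051), and it was called higher in 9 of 14 alternatives. Against growth medium, 2 genes were higher and 1 lower on day 1 (27.1% and 27.6% of all tested genes), 1 higher and 2 lower on day 3 (29.2% and 29.0%), and 4 higher and 3 lower on day 6 (32.6% and 31.1%). The balance depended on the scale: on log2(TPM + 1), 5 were higher and 1 lower on day 3, and 5 higher and 1 lower on day 6. The 2 higher on day 1 were Ifi35 (0.55 ± 0.15, adjusted p = 0.00336) and Trex1 (0.62 ± 0.20, 0.0129), with larger estimates than on day 6. The Trex1 call was lost without replicate 3 of day 1 (0.49, adjusted p = 0.0648). With a day 0 library left out, Ifi35 was 0.46 (without replicate 2) and Trex1 0.43 (without replicate 1). The fall of Samhd1 was the steadiest, with log2FC of -0.44, -0.49 and -0.58 (each ± 0.066, adjusted p of 4.78e-06, 1.22e-06 and 5.96e-08). Tlr3 fell by 0.59 on the log2 scale by day 3 (adjusted p = 0.0258), a call lost on both TPM scales (0.149 and 0.122), without day 0 replicate 1 (0.123) or 2 (0.0863) and without day 3 replicate 1 (0.105) or 3 (0.0835). By day 6 Tlr3 fell by 0.78 ± 0.22 (adjusted p = 0.00409; -0.34, 0.0553 on log2(TPM + 1)) and Tbk1 by 0.36 ± 0.12 (adjusted p = 0.0114), a call lost without WT replicate 1 or 2 of day 0 (adjusted p of 0.0932 and 0.0531) and without replicate 1 of day 6 (0.121), with library size only (0.0508), and on log2(TPM + 1) and log2(TPM + 0.1), where Tbk1 was at -0.171 and -0.182 (0.265 and 0.257). Dhx58 rose 6.27-fold, from 5 and 8 counts to 38 to 50 counts (log2FC 2.65 ± 0.43, adjusted p = 1.19e-05; 1.03 on log2(TPM + 1)). The rises of Ifih1 (0.66 ± 0.26, adjusted p = 0.0314; 0.37 on log2(TPM + 1)), Trex1 (0.47 ± 0.20, 0.0481) and Ifi35 (0.34 ± 0.15, 0.0496) by day 6 stood near the threshold. Each was lost without some single library: Ifih1 without day 0 replicate 2 (0.49, 0.225), Trex1 without day 0 replicate 1 (0.28, 0.340) and Ifi35 without day 0 replicate 2 (0.25, 0.287), and each also without replicate 2 of day 6 (adjusted p of 0.0712, 0.0791 and 0.166). The count of genes called on day 6 fell from 7 to 4 without day 0 replicate 2 or without day 6 replicate 1 or 2, and that on day 3 from 3 to 1 without day 0 replicate 1.

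In the libraries labelled KO, 3 genes were higher and 2 lower than in growth medium on day 1 (27.2% and 25.2% of all tested genes), 7 and 2 on day 3 (30.4% and 27.2%), and 8 and 2 on day 6 (36.6% and 33.5%). Of the 2 lower on day 3, Tbk1 (-0.26, adjusted p = 0.037) was not called in 7 of 15 alternatives, among them library size only and both TPM scales, which left 1 lower. By day 6, Dhx58 had risen 63.9-fold (log2FC 6.0 ± 0.27, adjusted p = 2.68e-15; 4.26 on log2(TPM + 1)) and Ifih1 15.6-fold (3.96 ± 0.22, adjusted p = 1.27e-13; 2.51 on log2(TPM + 1)). Ifi35 rose 4.88-fold, Eif2ak2 4.02-fold, Trex1 3.97-fold, Tlr3 2.73-fold and Adar 2.59-fold, with adjusted p from 2.73e-13 to 1.49e-07. Mavs rose by 0.21 ± 0.069 on the log2 scale (adjusted p = 0.00919), a call lost when no filter on low counts was used (0.0927). Tbk1 fell by 0.33 ± 0.11 (adjusted p = 0.00893), a call lost without labelled KO replicate 1 of day 6 (adjusted p = 0.0593) and on log2(TPM + 1) and log2(TPM + 0.1) (-0.20, 0.133 and -0.21, 0.130), and Samhd1 fell by 0.42 ± 0.060 (1.48e-06). Day 1 was a mixed start: Ifih1 (0.85, adjusted p = 0.00558; 0.67, 0.0376 without the library that stands apart), Tlr3 (0.45, 0.0439) and Ifi35 (0.38, 0.0209; 0.43, 0.0169 without it) rose while Adar (-0.27, 0.0103) and Samhd1 (-0.68, 2.56e-09; -0.62, 1.68e-09 without it) fell. The day 1 libraries of Ifih1 overlapped those of growth medium, and its call did not hold when the fit left out the other groups (0.86, adjusted p = 0.0614), while on log2(TPM + 1) it was at 0.45. The call of Ifi35 was lost without labelled KO replicate 3 of day 1 (0.34, adjusted p = 0.0642), and in WT the day 1 rise of Ifi35 was 0.55. Those of Tlr3 and Adar were lost in 5 and 6 of 15 alternatives. Without the library that stands apart, the day 1 calls of Tlr3 (0.25, adjusted p = 0.277) and Adar (-0.19, 0.0578) were lost, and Trex1 (0.55, 0.00509) and Tbk1 (-0.23, 0.0212) passed the test instead.

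**Figure D3:**
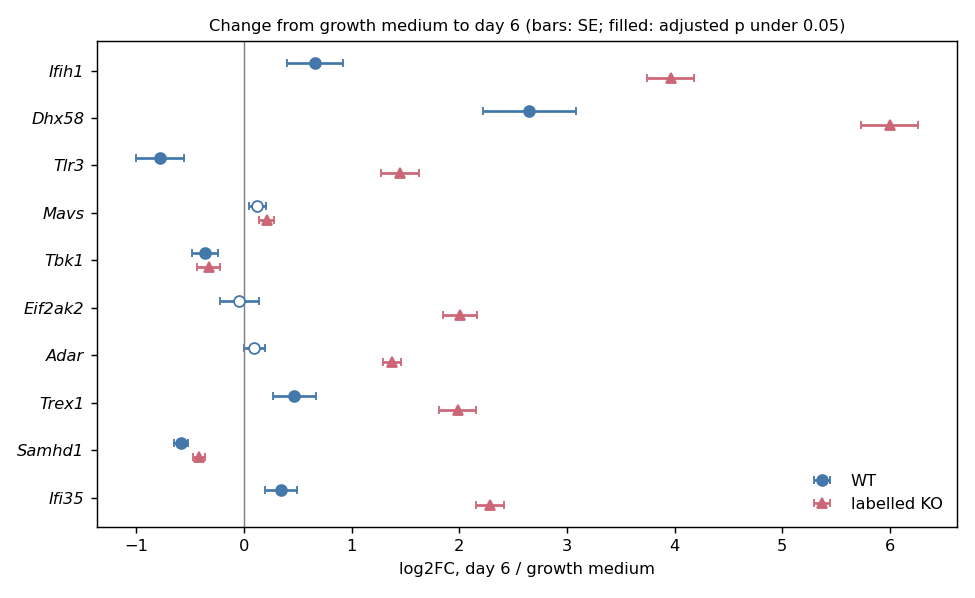
Log2 fold change from growth medium to day 6 for each gene, in WT (circles) and in libraries labelled KO (triangles). Bars are standard errors, and filled points passed an adjusted p of 0.05. For 7 genes the triangle lies 1.28 to 3.35 to the right of the circle, and for Mavs, Tbk1 and Samhd1 the symbols lie within 0.17 of each other.

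The change since growth medium differed between the genotypes, in a test of the interaction itself, for 0 of the 10 genes on day 1 (2.64% of all tested genes had a more positive and 1.31% a more negative change in labelled KO; at an unadjusted p under 0.05, 3 of the 10 genes passed). On day 3 it differed for 7 genes, all more positive in labelled KO (6.65% and 4.06% of all genes in the 2 directions), and on day 6 again for 7 (7.54% and 5.42%). On both days they were Ifih1, Dhx58, Tlr3, Eif2ak2, Adar, Trex1 and Ifi35. For Mavs, Tbk1 and Samhd1 the day 6 interaction was 0.09 ± 0.10, 0.04 ± 0.16 and 0.17 ± 0.089 on the log2 scale (adjusted p of 0.681, 0.943 and 0.265). These tests share the growth medium libraries with the comparisons against day 0 above. The Dhx58 interactions were lost without WT replicate 2 of day 0 (2.40, adjusted p = 0.207 on day 3; 2.94, adjusted p = 0.0921 on day 6). The day 3 interaction of Trex1 was lost when any 1 of 6 libraries was left out, with values from 0.67 to 0.90 and adjusted p from 0.0514 to 0.260.

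Beyond the 10 genes, 73 others in 7 lists of the same pathways were followed, of which 69 were tested. Of the 10 genes around the RIG-I-like receptors, 4 were higher and 2 lower in labelled KO on day 6, with a median log2FC of -0.02, where 22.0% of all tested genes were higher and 20.8% lower. On day 1, 4 were higher and 3 lower (22.9% and 19.2%), a count not repeated without the library that stands apart. That library held the top of the labelled KO range on day 1 for Dhx36 (50.7 to 87.2 CPM), Dhx9 (183 to 255 CPM) and Ddx3x (316 to 495 CPM). In WT these genes ranged from 47.6 to 49.5, 128 to 149 and 207 to 244 CPM. Ddx58, which encodes RIG-I, reversed its sign over time: labelled KO was lower in growth medium (-0.74 ± 0.14, adjusted p = 0.000543) and on day 1 (-0.75 ± 0.11, 1.22e-05; -0.88 without the library that stands apart), and higher on day 3 (0.97 ± 0.10, 8.31e-08) and day 6 (2.15 ± 0.11, 8.64e-14). Its level on day 6 was 22.8, 21.4 and 21.3 CPM in WT and 88.5, 101 and 102 CPM in labelled KO, with no overlap. Ddx60, a helicase gene that interferon induces, had 2 to 6 counts in WT and 116 to 171 in labelled KO on day 6 (log2FC 5.02 ± 0.41, adjusted p = 2.49e-09). It had at most 7 counts in any WT library and at most 2 in labelled KO on days 0 and 1. It therefore passed the filter on low counts only through labelled KO on days 3 and 6, where it is high. Its call, which is part of the 4 higher on day 6, was to that extent set by the filter. Rnf125, which encodes a ubiquitin ligase that targets RIG-I for degradation, was lower (-1.41 ± 0.38, adjusted p = 0.00416), although the libraries of the groups overlapped.

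The list of endosomal sensing held 8 genes, 5 of them tested, of which 1 was higher and 3 lower on day 3 (24.0% and 19.2% of all tested genes) and 1 higher and 0 lower on day 6 (22.0% and 20.8%). The gene called on day 6 was Myd88, the adaptor of most Toll-like receptors (0.36 ± 0.11, adjusted p = 0.0123), and its call was lost without any 1 of 4 of the 6 libraries of that day (log2FC from 0.28 to 0.31, adjusted p from 0.0589 to 0.0939) and on log2(TPM + 1) and log2(TPM + 0.1), where the value was 0.106 and 0.113 (adjusted p of 0.506 and 0.503). Of 16 kinases and adaptors downstream of the sensors, 3 were higher and 2 lower on day 6, no larger a share than over all tested genes (22.0% and 20.8%), and on day 1 3 were higher and 4 lower (22.9% and 19.2%). Irf7, the interferon-inducible transcription factor that amplifies interferon production, was 5.76, 5.50 and 3.61 CPM in WT and 105, 138 and 136 CPM in labelled KO on day 6 (4.67 ± 0.17, adjusted p = 4.28e-16), after a lower level in labelled KO on day 1 (-1.49 ± 0.27, 0.000137; -1.35 without the library that stands apart). Fadd, a death domain adaptor, was higher (0.74 ± 0.12, 2.29e-05). Ikbke, which encodes the close relative of TBK1, was lower on day 6 (-0.47 ± 0.13, 0.0058), a call lost without WT replicate 2 (-0.34, 0.0506).

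Among 9 genes of cytosolic DNA sensing, 1 was higher and 4 were lower on day 1 (22.9% and 19.2% of all tested genes), and 4 were higher and 0 lower on day 6 (22.0% and 20.8%). Zbp1, a sensor of left-handed double helices, was 2.92, 2.75 and 2.94 CPM in WT and 63.3, 75.4 and 80.4 CPM in labelled KO (4.67 ± 0.17, adjusted p = 4.8e-16). Ifi203 and Ifi204, of the family of interferon-inducible p200 proteins, differed by 1.63 ± 0.17 (4.56e-08) and 0.74 ± 0.14 (0.000199). Like Ddx58, both were lower in labelled KO in growth medium, at -0.74 ± 0.21 (0.0177, lost without labelled KO replicate 3 or either WT replicate, adjusted p from 0.0594 to 0.168) and -0.76 ± 0.16 (0.00176). These genes belong to a family of close copies, so the division of reads among them is uncertain.

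Of 10 nucleases and RNA-processing genes, 2 were higher and 5 lower on day 6, beside 22.0% and 20.8% of all tested genes. Dnase1l3, which encodes a secreted DNase, was higher (1.84 ± 0.29, adjusted p = 2.75e-05) and had 0 counts in every growth medium library. Adarb1, which encodes the editing enzyme ADAR2, moved against Adar: it was 131, 123 and 154 CPM in WT and 84.1, 73.6 and 68.6 CPM in labelled KO (-0.85 ± 0.085, 2.22e-08). Of 14 genes for double-stranded RNA binding and the eIF2 branch, 3 were higher and 4 lower, shares near those over all tested genes (22.0% and 20.8%). Ppp1r15a, whose product reverses eIF2 alpha phosphorylation, was higher (0.57 ± 0.10, 7.92e-05), and the eIF2 kinase genes Eif2ak3 (-0.43 ± 0.089, 0.000424) and Eif2ak4 (-0.39 ± 0.10, 0.00336) were lower. Eif2ak1, the remaining eIF2 kinase gene of the list, was higher like Eif2ak2 (0.34 ± 0.076, 0.000821) and is named here after its value was seen.

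The outputs of these pathways were higher for 5 of 5 tested genes on day 3 and again on day 6, beside 24.0% and 22.0% of all tested genes. Isg15, a ubiquitin-like protein, was 4.77, 4.48 and 3.27 CPM in WT and 56.8, 78.8 and 81.2 CPM in labelled KO (4.11 ± 0.17, adjusted p = 3.11e-15). Ifit1, which binds RNA that lacks cap methylation, was 3.91, 2.84 and 3.44 CPM against 103, 142 and 143 CPM (5.25 ± 0.18, 2.32e-16). The chemokine genes Cxcl10 and Ccl5 differed by 4.30 ± 0.34 (3.85e-10) and 2.14 ± 0.24 (1.47e-07). Nmi, which encodes the partner of IFI35, differed by 1.25 ± 0.18 (3.69e-06). In growth medium 0 of the 5 were higher and 1 lower (7.36% and 10.1% of all tested genes), and on day 1 2 were higher and 1 lower (22.9% and 19.2%). The lower gene was Isg15 both times, at -1.76 ± 0.34 (0.0006) and -1.33 ± 0.28 (0.000609; -1.20 without the library that stands apart). The higher genes of day 1 were Ifit1 (1.16 ± 0.31, 0.00434; 1.15, 0.0213 without that library; 0.51 on log2(TPM + 1)) and Nmi (0.98 ± 0.17, 8.24e-05; 0.78, 0.000983 without that library). Ifnb1, the gene of interferon beta, had 0 counts in 22 libraries and 1 count in a day 6 library labelled KO, under the floor of 3 counts (0.126 to 0.14 CPM), so it was not detectable at this depth.

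**Figure D4:**
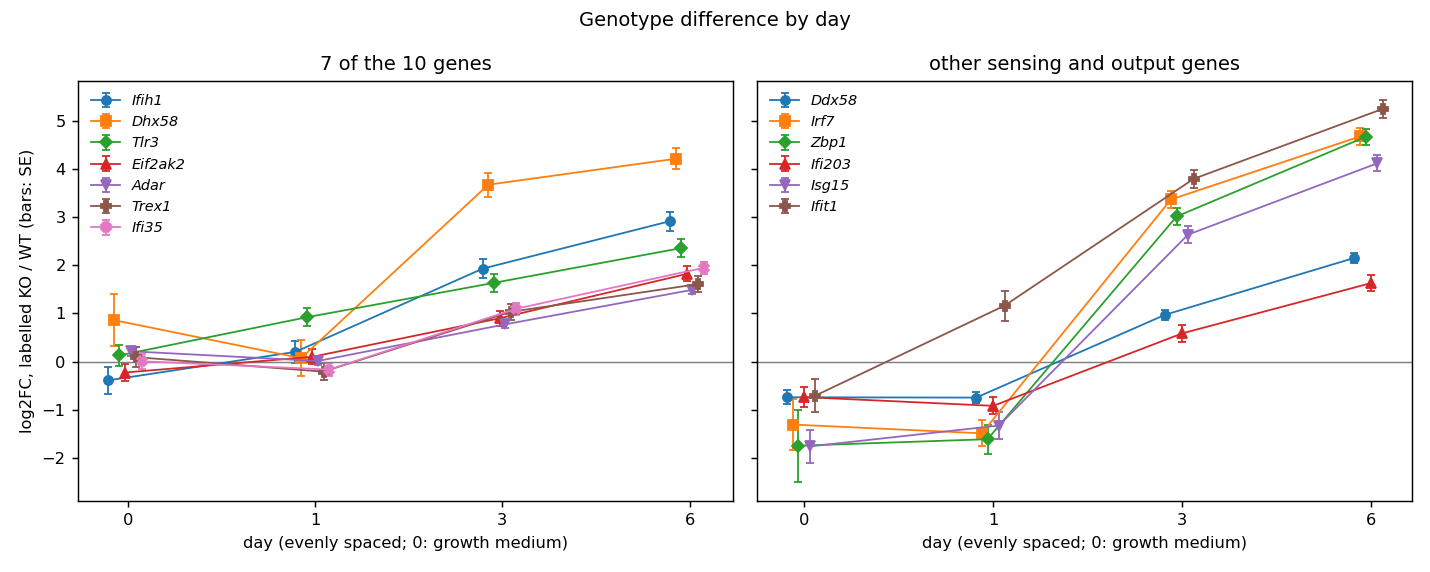
Log2 fold change of libraries labelled KO over WT by day (evenly spaced) for the 7 genes that differed late (left) and for 6 other genes of sensing and its outputs (right). Bars are standard errors. Left, values lie from -0.39 to 0.86 on day 0. Right, all 6 lie below 0 on day 0 and 5 of them below 0 on day 1, and all 6 above 0 on days 3 and 6. These 6 were picked for display without a rule, so their common course does not stand for the lists. Other genes named in the text went otherwise, such as Rnf125, Ikbke and Adarb1, which were lower on day 6 (-1.41, -0.47 and -0.85).

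Across the 8 group means of log2 CPM, the 10 genes formed 1 tight cluster and a loose remainder. Pearson's r was 0.93 to 0.996 for pairs among Ifih1, Dhx58, Eif2ak2, Adar, Trex1 and Ifi35, highest for Trex1 with Ifi35. Tlr3 followed them at 0.73 to 0.843. Mavs and Tbk1 ran opposite to each other (-0.913). Like patterns were sought among 10695 candidate genes, a number that counts the 10 genes themselves, which were not compared. The patterns most like Ifih1 were those of Tbc1d8, Phf11d and Rtp4 (r of 0.995, 0.993 and 0.991). Those most like Dhx58 were Irf9, Phf11d and Mx2 (0.993, 0.992 and 0.992), and like Eif2ak2 Oas3, Oas2 and Helz2 (0.988, 0.987 and 0.985). Those most like Adar were Sik1, Inppl1 and Oas2 (0.997, 0.990 and 0.987), like Trex1 Trim25, Rtp4 and Ifi27l2a (0.990, 0.984 and 0.984), and like Ifi35 Trim25, Ksr1 and Rtp4 (0.996, 0.985 and 0.984). Tlr3 was most like Cmpk2, Uqcrfs1 and Herc6 (0.981, 0.973 and 0.971). The 3 genes with small differences had other neighbours: Soat1, Extl3 and Hecw2 for Mavs (0.977, 0.972 and 0.971), Pptc7, Srcap and Zbtb39 for Tbk1 (0.991, 0.990 and 0.989), and Scamp3, Ipo4 and Runx3 for Samhd1 (0.988, 0.984 and 0.977). These values describe 8 means from the same libraries and carry no test. Some rest mostly on labelled KO on days 3 and 6: there Oas2 had a mean log2 CPM of 2.01 and 5.85, and elsewhere -3.51 to -2.85.

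Some cell type markers moved with the same contrast, those of muscle above all. Skeletal muscle genes were present as the cell line would have them: the summed TPM of 8 of them was 935 to 948 in WT and 1256 to 1295 in labelled KO in growth medium. On day 3 it was 3350 to 3464 against 4816 to 7763, and on day 6 2885 to 3340 against 12020 to 13690, where 6 of the 8 genes were higher and 1 lower in labelled KO (22.0% and 20.8% of all tested genes). The part of this difference in muscle genes in the levels of the 10 genes was not tested, and in bulk RNA fewer cells of a type cannot be told apart from less RNA per cell. Of 8 leukocyte and macrophage markers, the summed TPM on day 6 was 15.7 to 17.5 in labelled KO and 5.55 to 9.46 in WT, carried by Cd68, a lysosomal protein gene also expressed outside macrophages (15.2 to 17.0 against 4.13 to 7.73). In the 3 day 6 libraries labelled KO, Ptprc, Adgre1, Lyz2 and Cd3e had 0 counts, while Csf1r was at 0.2 to 0.28 TPM (0.95 to 1.41 in WT) and Itgam at 0.15 to 0.28 TPM (0.08 to 0.21 in WT). Summed endothelial markers stayed at or below 0.65 TPM in every library. The sum of 4 epithelial markers was 0.23 to 2.07 TPM in labelled KO and 0 to 0.08 TPM in WT on day 6, and its highest value in any library was 2.18 TPM. The 2 tested (Krt8 and Cdh1) were higher in labelled KO on day 6, beside 22.0% of all tested genes. In WT all 4 had at most 3 counts per library on days 0, 3 and 6. The filter on low counts thus favoured markers high in labelled KO, and the 2 calls show no excess. The part of these markers in the levels of the 10 genes was not tested.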

How the data were processed

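RNA-seq of C2C12 cells was deposited as tables of 32793 genes by 23 libraries, with 0 columns that matched no sample. The authors' deposited counts are whole-number estimated counts per gene, and their TPM values are normalised for transcript length; Bowtie2, RSEM and the build mm10 are named in the submitters' processing notes, without roles or settings. All libraries were fitted together with edgeR 4.0.16 (R 4.3.3): TMM scaling, a filter on low counts (filterByExpr, minimum count 10, minimum total 15), 14187 genes tested, quasi-likelihood tests, Benjamini-Hochberg adjustment, threshold 0.05. Of the rows, 12326 were 0 in every library. CPM values use TMM library sizes, and 1 CPM is 21.4 to 23.9 counts. Reads carry no molecular identifiers, so counting limits cover counting error only. The fit was also run on simulated counts, with an outcome not reported here. Alternatives were other scalings, filters, DESeq2 1.42.0, limma 3.58.1 on log2(TPM + 1) and log2(TPM + 0.1), a replicate block, fits of only the groups compared, and each library left out. The members and gene lists were chosen with earlier results of these data known. Other pathway genes are named by rule: in each list, up to 3 with an adjusted p under 0.05 on day 6, at least 1 CPM in some group and the largest change, plus every tested output gene. Some items that the rules name are not reported here. Likeness is Pearson's r over 8 group means of log2 CPM (prior count 2), among genes with at least 5 CPM in some group and no model name. Sequences are from RefSeq, matched by symbol.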

Additional observations from a re-analysis of the deposited data

Results flagged for a closer look

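The change from growth medium differed between libraries labelled KO and WT for 7 genes, by a test of the difference itself (edgeR interaction term, Benjamini-Hochberg adjustment over all tested genes). Each value is the log2 fold change since growth medium in labelled KO minus that in WT. Among the sensor genes, Ifih1 differed by 2.32 ± 0.35 (SE, adjusted p = 7.9e-05) on day 3 and 3.30 ± 0.35 (3.91e-07) on day 6. Dhx58 differed by 2.81 ± 0.69 (0.00912) and 3.35 ± 0.70 (0.00183), with 5 and 8 counts behind its WT growth medium libraries. Tlr3 differed by 1.51 ± 0.28 (0.000897) and 2.23 ± 0.28 (5.81e-06).

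Of the enzymes of double-stranded RNA, Eif2ak2 differed by 1.13 ± 0.24 (adjusted p = 0.00247) on day 3 and 2.05 ± 0.23 (1.34e-06) on day 6 in the edgeR test, and Adar by 0.56 ± 0.13 (0.00433) and 1.28 ± 0.13 (1.42e-07). Trex1 differed by 0.94 ± 0.27 (0.0236) and 1.52 ± 0.27 (0.000291), and its day 3 call was lost when any 1 of 6 libraries was left out. Ifi35 differed by 1.09 ± 0.20 (0.000588) and 1.94 ± 0.20 (2.34e-07).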

How the results depend on the processing

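The labelled KO against WT calls of Ifih1, Dhx58, Tlr3, Eif2ak2, Adar, Trex1 and Ifi35 on days 3 and 6 held under every alternative tried, and so did their day 6 interactions, except that of Dhx58 without WT replicate 2 of day 0. Their sizes moved: on log2(TPM + 1), a scale that understates the change of low genes, Ifih1 was 1.06 on day 3 in place of 1.93 and 1.98 on day 6 in place of 2.92, Dhx58 2.49 in place of 3.67 on day 3, and Tlr3 0.57, 0.99 and 1.53 in place of 0.92, 1.64 and 2.36 on days 1, 3 and 6. On that scale the interactions of Ifih1 were 1.22 and 2.13 in place of 2.32 and 3.30 on days 3 and 6, and that of Tlr3 on day 3 0.96 in place of 1.51. Other called values moved too: on log2(TPM + 0.1), Mavs on day 6 was -0.33 in place of -0.20 between genotypes and 0.32 in place of 0.21 in labelled KO, Samhd1 on day 3 -0.44 in place of -0.29 between genotypes, and Ifi35 in WT on day 6 0.52 in place of 0.34. On log2(TPM + 1), Samhd1 in WT on day 3 was -0.32 in place of -0.49. Trex1 in WT on day 6 was 0.74 without day 0 replicate 2. Where a day 0 WT library was left out, the lone library was assumed to vary like the other groups. Over all alternatives, 1869 log2 fold changes of the 10 genes kept direction and side of the threshold, 88 lost a call, 40 gained one and 63 changed sign. Depth limited Dhx58 and Ddx60, which had few counts in WT. The cause of the changes below was not tested.

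Replicate numbers did not pair the libraries: same-numbered libraries deviated together with r from -0.24 to 0.116 over 26 pairs, 1 of them over 0.1. With a replicate block, the 10 genes had 1 call on day 0 in place of 2 (Samhd1, -0.20, adjusted p = 0.0582) and 5 in place of 7 in WT on day 6, and Ifi35 on day 0 was at -0.0090 and Myd88 at -0.0049.

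The 2 day 0 calls between genotypes became 1 with RLE scaling, 0 without a filter, 4 with only the groups compared and 0 to 1 with a library left out. Calls against growth medium in WT on day 1 went from 3 to 5 with library size only, a mean count of at least 50, DESeq2 or log2(TPM + 0.1), and to 2 to 5 with a library left out (5 without WT replicate 1 of day 1). In WT on day 3 they went from 3 to 6 on log2(TPM + 1), 6 on log2(TPM + 0.1), 5 with only the groups compared and 1 to 3 with a library left out, and on day 6 from 7 to 4 to 7. In labelled KO on day 1 they went from 5 to 2 with only the groups compared and to 3 to 6 with a library left out (3 without day 0 replicate 3). DESeq2 called 1 interaction on day 1 (Samhd1) where edgeR called 0.

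Over all genes, day 0 calls between genotypes fell from 2479 to 1265 without WT replicate 1 and 1499 without WT replicate 2 (2216 at most with a library left out), and day 1 calls from 5981 to 3607 with only the groups compared. The 560 interaction calls on day 1 became 239 with only the groups compared and 148 to 919 with a library left out. Those on day 3 went from 1519 to 2613, and to 829 to 1429, and those on day 6 from 1839 to 1184 to 1861, lowest without WT replicate 2 of day 0.

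Values near 0 changed sign. On log2(TPM + 1) and log2(TPM + 0.1), in that order, Mavs in labelled KO on day 1 was 0.023 and 0.025 and its day 6 interaction -0.0094 and -0.0063. Tbk1 was 0.077 and 0.079 in labelled KO on day 1, and its day 6 interaction -0.031 and -0.031. Eif2ak2 in WT was 0.056 and 0.064 on day 1, 0.049 and 0.056 on day 3, and 0.11 and 0.12 on day 6. Adar was -0.047 and -0.051 between genotypes on day 1, and 0.043 and 0.045 in WT on day 1. Between genotypes on day 0, Trex1 was -0.023 and -0.024, Ifi35 -0.047 and -0.0495, and Myd88 -0.048 and -0.050. With library size only, Tbk1 in labelled KO on day 1 was 0.035, Eif2ak2 in WT 0.0036 on day 1 and 0.041 on day 6, Adar -0.029 between genotypes on day 1 and 0.0013 in WT, and Ifi35 and Myd88 on day 0 both -0.053. Adar on day 1 was also -0.0082 with RLE scaling, -0.0053 without a filter, -0.031 at a mean count of at least 50, -0.0083 in DESeq2 and -0.0099 with only the groups compared, and Eif2ak2 in WT on day 6 was 0.018 at a mean count of at least 50.

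With a library left out, the difference between genotypes on day 1 ran from -0.0017 to 0.45 for Ifih1, -0.13 to 0.42 for Dhx58, -0.20 to 0.28 for Eif2ak2, -0.082 to 0.063 for Adar and -0.070 to 0.0205 for Myd88. On day 0 it ran from -0.12 to 0.365 for Trex1, -0.081 to 0.12 for Ifi35 and -0.10 to 0.14 for Myd88. Samhd1 on day 6 ran from -0.074 to 0.0063 and Ifi204 on day 3 from -0.13 to 0.0071. Against growth medium, Tbk1 in labelled KO on day 1 ran from -0.23 to 0.053, Eif2ak2 in WT from -0.13 to 0.052 on day 1 and -0.17 to 0.11 on day 6 and in labelled KO from -0.0051 to 0.44 on day 1, and Adar in WT on day 1 from -0.060 to 0.0073. The Tbk1 interaction ran from -0.12 to 0.22, -0.12 to 0.035 and -0.077 to 0.0715 on days 1, 3 and 6.

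Scaling moved the balance of calls over all genes. The share of called genes that were higher in labelled KO was 42.1% on day 0 (29.5% with library size only, 31.3% and 30.2% on the TPM scales), 54.4% on day 1 (43.3% and 43.4% on TPM), 55.5% on day 3 (34.3% and 34.3%) and 51.4% on day 6 (34.9% and 34.7%), where the median of all genes moved by up to -0.147 and 7 of the 10 genes were still called higher on both days. In WT it was 49.6% (60.6% and 61.2%), 50.1% (63.8% and 64.6%) and 51.2% (63.5% and 63.9%) on days 1, 3 and 6, with shifts of the median of up to 0.156, and in labelled KO on day 1 51.9% (65.2% and 66.3%; shift 0.126). For interactions it was 66.8% on day 1 (52.5% in DESeq2, 51.4% and 54.6% on TPM) and 62.1% on day 3 (51.6% with RLE, 51.4% in DESeq2, 45.2% and 47.6% on TPM).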
